A study of Drosophila melanogaster with 4 samples.

Results

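Small nucleolar ribonucleoproteins (snoRNPs) are particles in which a small nucleolar RNA (snoRNA) guides a set of core proteins to sites of the ribosomal RNA. Box C/D particles methylate ribose groups and H/ACA particles convert uridine to pseudouridine, and both kinds work in the nucleolus, where ribosomes are made. The genes described here are 7 that encode their core proteins or a nucleolar partner of them: *Fib*, *nop5*, *Nop56* and *hoip* for box C/D particles, *Nop60B* and *NHP2* for H/ACA particles, and *Nopp140*, a phosphoprotein of the nucleolus and Cajal bodies that associates with both kinds. They were taken by their FlyBase symbol from 17023 gene rows, and 6 of the 7 were found. The annotation lists *hoip* as FBgn0286786 (chromosome 2L, 9699791 to 9700459), an identifier with no row of its own in the count tables, so no value is given for it. All 6 genes passed the filter on low counts.

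Ovaries of *Drosophila melanogaster* were sequenced as poly(A)-selected RNA in 4 libraries, 2 per group (n = 2), and all values below are from these libraries. The first group carried *UAS-Dicer2;NosGAL4 > aramis RNAi*, which depletes the DEAD-box helicase gene *aramis* (*ais* in the annotation), and the second, its developmental control, carried *UAS-Dicer2;NosGAL4 > bam RNAi*. Both groups therefore share *UAS-Dicer2*, which strengthens silencing, and *NosGAL4*, which drives the hairpin in germ cells and leaves the somatic cells of the ovary without it. All females were dissected 1 to 3 days after eclosion. *bam* promotes differentiation of the daughters of germline stem cells, and ovaries that lack it fill with undifferentiated germ cells. Driver-only ovaries were not analysed here. How many females went into a library, and whether the libraries came from separate crosses, was not stated in the sources used here. The p-values therefore rest only on the spread between these libraries, which may be technical. For each gene that spread is fitted in part from other genes, so a p-value does not measure how even the gene's own replicates were.

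Total counts per library ran from 12977013 to 16754980. *ais* had normalised counts of 117 and 153 with *aramis* RNAi against 910 and 323 with *bam* RNAi, and *bam* had 50.3 and 72.7 against 60.0 and 70.4. The level of *ais* therefore went with the labels. It was 4.57-fold lower, but 13 of 30 germline markers were also called lower past 4-fold, where 3.6% of all genes were. The fall of *ais* alone therefore does not show the effect of its hairpin. The level of *bam* did not separate the groups. By genotype only the *bam* RNAi libraries carried a hairpin against *bam*, so these counts do not show its depletion. The reason was not tested, and no driver-only library was analysed for comparison. Part of the germ cell markers were lower in *aramis* RNAi, and part of the muscle and hemocyte markers were higher. Over all genes, 7.79% were called lower and 9.85% higher (DESeq2 adjusted p under 0.05), and 5876 of 11128 had a log2 fold change below 0. Of the 30 germline markers tested, 16 were called lower and 0 higher, and 26 had a log2 fold change below 0. Their summed normalised count was 41247 and 44439 in *aramis* RNAi against 84462 and 107661 in *bam* RNAi. All 4 defining germline markers with a row (*nanos*, *aub*, *bgcn*, *rhi*) were detected in every library, and *vas* had no row under its annotated identifier. Of 20 muscle markers 8 were called higher, and of 11 hemocyte markers 7 were, with summed normalised counts of 864743 and 888812 against 389407 and 260758 for muscle and of 135148 and 185004 against 162042 and 56120 for hemocytes. Of 13 markers of the ovarian soma, 1 (*tj*) was called lower and 0 higher, and their sum was 42837 and 53578 against 37776 and 31226. *PPO1* had no row, and no defining marker with a row was at 0 in all libraries. The part of the muscle and hemocyte markers in the results below was not tested. In whole ovaries, fewer cells of a type and less RNA per cell cannot be told apart.

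The first question was whether the mRNAs of these genes differed between the groups. All 6 were lower in *aramis* RNAi, with a median log2 fold change of -1.32, where the median of all 11128 genes tested was -0.09. By DESeq2 at an adjusted p under 0.05, 4 of the 6 fell (*Fib*, *nop5*, *Nopp140* and *Nop60B*) and 0 rose. Over all genes, 7.79% were called lower and 9.85% higher. *Nop56* and *NHP2* were lower by values that did not pass the threshold. At an added limit of 4-fold, taken from methods that do not describe the *aramis* RNAi libraries, 0 of the 6 were called, where 3.6% of all genes were in this direction. In each of the 6, the higher *aramis* RNAi value was below the lower *bam* RNAi value, a pattern found in 30.3% of all genes tested.

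*Fib* (FBgn0003062; chromosome 2R, 23072909 to 23074725, minus strand, dm6) encodes fibrillarin, the methyltransferase of box C/D particles. Its normalised counts were 1078 and 1083 with *aramis* RNAi against 2816 and 3138 with *bam* RNAi. The replicates lay close together in both groups, and the lower *bam* RNAi value was 2.60-fold above the higher *aramis* RNAi value, the widest gap of the 6 genes. *Fib* was 2.75-fold lower (95% interval 1.60 to 4.75), or -1.46 on the log2 scale (SE 0.40, DESeq2 adjusted p = 0.00407).

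*nop5* (FBgn0026196; chromosome 2L, 6916753 to 6918743, minus strand) encodes a core protein that forms a dimer with its relative Nop56 in the box C/D particle. It had normalised counts of 1773 and 2151 with *aramis* RNAi against 5601 and 5085 with *bam* RNAi. The groups did not overlap, and the lower *bam* RNAi value was 2.36-fold above the higher *aramis* RNAi value. On the log2 scale *aramis* RNAi differed by -1.45 (SE 0.40, DESeq2 adjusted p = 0.00459), or 2.72-fold lower (95% interval 1.58 to 4.70).

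*Nop56* (FBgn0038964; chromosome 3R, 22419095 to 22421068, minus strand) encodes the partner of Nop5 in that particle. Its normalised counts were 2594 and 2754 with *aramis* RNAi against 4535 and 6103 with *bam* RNAi. The *bam* RNAi replicates were 1.35-fold apart, more than for any other of the 6 genes, and the gap between the groups was the narrowest, at 1.65-fold. On the log2 scale *aramis* RNAi differed by -0.99 (SE 0.41, DESeq2 adjusted p = 0.0712), a 1.99-fold difference with a 95% interval of 1.14 to 3.46.

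*Nop60B* (FBgn0259937; chromosome 2R, 24174877 to 24186343, plus strand) encodes the fly dyskerin, the pseudouridine synthase of H/ACA particles. It had normalised counts of 2186 and 3113 with *aramis* RNAi against 6713 and 5679 with *bam* RNAi. Here the *aramis* RNAi replicates were the less even, at 1.42-fold apart, and the groups stayed separate by 1.83-fold. *Nop60B* was 2.34-fold lower (95% interval 1.33 to 4.11), or -1.23 on the log2 scale (SE 0.42, DESeq2 adjusted p = 0.0242).

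*NHP2* (FBgn0029148; chromosome 3L, 14801328 to 14802168, minus strand) encodes a small RNA-binding core protein of H/ACA particles. With normalised counts of 532 and 385 with *aramis* RNAi against 886 and 1135 with *bam* RNAi it had the fewest reads of the 6 genes. The groups were separate by 1.67-fold. On the log2 scale *aramis* RNAi differed by -1.14 (SE 0.44, DESeq2 adjusted p = 0.0544), and its 95% interval ran from 1.21-fold to 4.03-fold lower.

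*Nopp140* (FBgn0037137; chromosome 3L, 21832774 to 21836685, plus strand) was about as even between replicates as *Fib*. Its normalised counts were 2072 and 2034 with *aramis* RNAi against 5628 and 5258 with *bam* RNAi, so the groups were separate by 2.54-fold. It was 2.65-fold lower (95% interval 1.55 to 4.53), or -1.41 on the log2 scale (SE 0.39, DESeq2 adjusted p = 0.00510). The gene shares 21 exonic bases with *P5CDh1* on the opposite strand, and the strand setting used in counting was not stated.

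**Figure D1:**
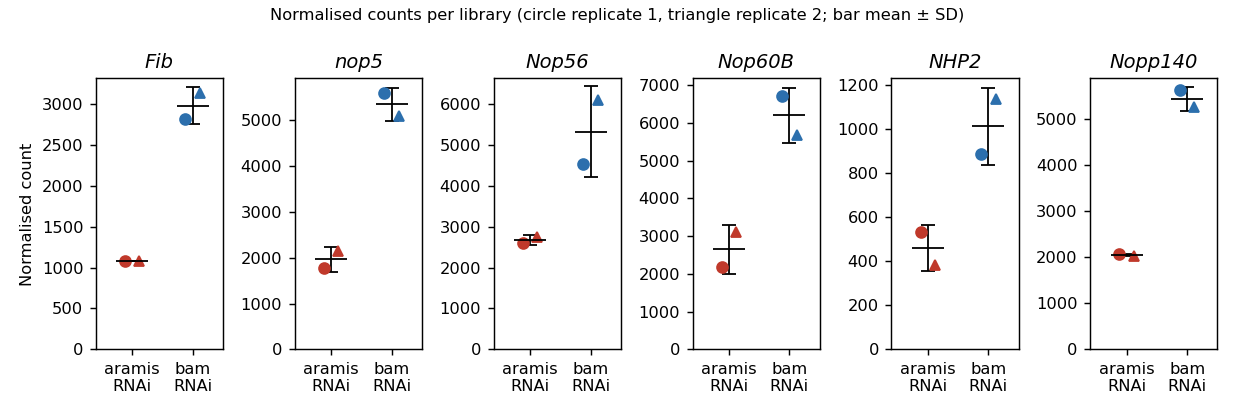
Normalised count (vertical axes, each from 0) of the 6 genes in the 4 libraries, with circles for replicate 1, triangles for replicate 2 and bars for the mean ± SD (n = 2). In every panel both *aramis* RNAi points lie below both *bam* RNAi points, with the widest gap in *Fib* (2.60-fold) and the narrowest in *Nop56* (1.65-fold).

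Which of these differences passed the threshold depended on the scaling and on the libraries used. The edgeR quasi-likelihood test called 3 of the 6 lower (*Fib*, *nop5* and *Nopp140*), where it called 4.74% of all genes lower, and *Nop60B* had an edgeR adjusted p of 0.0697. The germline markers moved with the 6 genes, and the 2 sets were compared within each library. The median log2 normalised count of the 6 genes exceeded that of the 30 germline markers by 1.77 and 1.80 with *aramis* RNAi against 1.83 and 1.58 with *bam* RNAi, so relative to the germline markers the groups overlapped. When the libraries were scaled to the germline markers, all 6 genes became higher in *aramis* RNAi, by log2 values of 0.10 (*nop5*) to 0.60 (*Nop56*), and 0 of the 6 were called in either direction, where 69 of all genes were called lower and 5534 higher. The DESeq2 adjusted p then ran from 0.233 to 0.863. In that scaling the median of all genes moved to 1.49, and with scaling to total counts it moved to -0.45. Relative to it the median of the 6 genes was -1.23 as reported, -1.26 with germline marker scaling and -1.22 with total counts, a distance that scaling leaves nearly fixed by construction, since it moves all genes by about the same amount. Without *aramis* RNAi replicate 1 or replicate 2, 0 of the 6 were called, while the lower calls over all genes went from 783 to 103 and 197. Without *bam* RNAi replicate 1, 6 of the 6 were called while lower calls over all genes went to 492, and without replicate 2, 4 were called while they went to 1180.

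**Figure D2:**
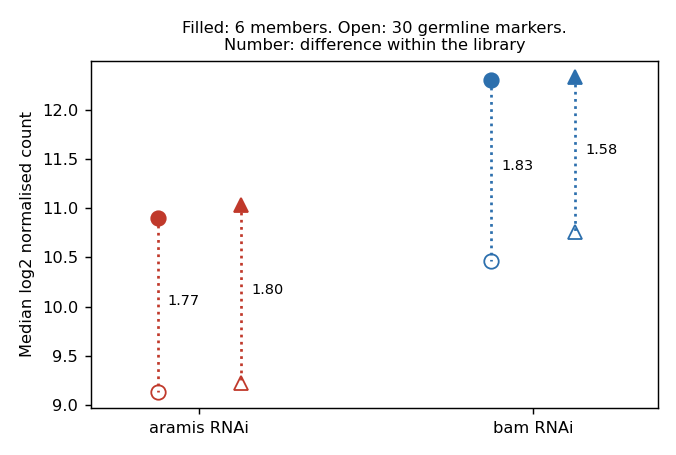
Median log2 normalised count (vertical axis) of the 6 genes (filled) and of the 30 germline markers (open) in each library, with circles for replicate 1 and triangles for replicate 2. The number on each dotted line is the difference between the 2 medians in that library, from 1.58 to 1.83. Both medians are lower in *aramis* RNAi, and the differences overlap between the groups.

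**Figure D3:**
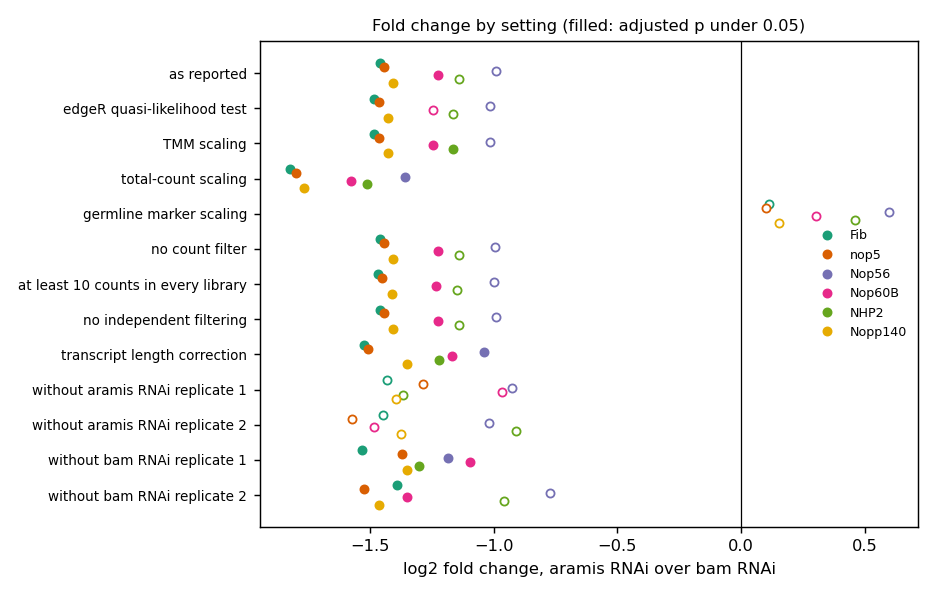
Log2 fold change of the 6 genes (horizontal axis, *aramis* RNAi over *bam* RNAi) as reported and under each other setting (vertical axis), with filled points for an adjusted p under 0.05. All points lie below 0 except those with germline marker scaling, which lie between 0.10 and 0.60. Blocked fits, which use the replicate number, and the crossed pairing are not plotted. The closing section gives the number of genes called in each, and the median for the block alone.

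The proportions between the 6 genes were then compared within libraries, since a difference of log2 values inside a library does not depend on how libraries are scaled. *Fib* minus *nop5* was -0.72 and -0.99 with *aramis* RNAi against -0.99 and -0.70 with *bam* RNAi, so the group means differed by -0.01 and the groups overlapped. *Nop56* was compared with both. *nop5* minus *Nop56* was -0.55 and -0.36 with *aramis* RNAi against 0.30 and -0.26 with *bam* RNAi, a difference of -0.47 with no overlap between the groups. *Fib* minus *Nop56* was -1.27 and -1.35 against -0.69 and -0.96, a difference of -0.48. Of all 15 pairs of the 6 genes, 4 did not overlap between the groups, 3 of them with *Nop56*. With a correction for transcript length, which is given below, 7 pairs did not overlap, the same 3 with *Nop56* among them. Pairs of other genes were not counted, so how usual such numbers are is not known. Taken by particle, the mean log2 normalised count of the 3 box C/D genes was 10.74 and 10.86 with *aramis* RNAi against 12.02 and 12.17 with *bam* RNAi, a difference of -1.30. That of *Nop60B* and *NHP2* was 10.08 and 10.10 against 11.25 and 11.31, a difference of -1.20. Unlike the pair values, these particle differences are taken between libraries and depend on the scaling. With germline marker scaling the genes of both particles were higher in *aramis* RNAi, as given above. No test was made of the pair or particle differences. With 2 libraries per group the smallest p of a two-sided exact permutation test is 0.33. A pair whose groups did not overlap would reach only that value, so whether *Nop56* changed its proportion to the others stays undecided.

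Levels of different genes were compared per length, as TPM (a share of all transcripts), that is, counts divided by the length of the longest annotated transcript and scaled to the same sum in each library. By group mean *Nop56* and *nop5* were the highest and *NHP2* the lowest in both groups. In *bam* RNAi the mean TPM was 490 ± 84.6 (SD, n = 2) for *Nop56*, 477 ± 49.9 for *nop5*, 364 ± 14.6 for *Fib*, 294 ± 45.3 for *Nop60B*, 272 ± 23.0 for *Nopp140* and 208 ± 28.8 for *NHP2*. Of these, *Nop56* and *nop5* were not separated from each other, and neither were *Nop60B* and *Nopp140*. In *aramis* RNAi the means ran from 175 ± 29.6 for *Nop56* through 124 ± 32.5 for *nop5* to 66.0 ± 6.69 for *NHP2*. There only *Nop56* was separated from its neighbour in the order, and the ranges of all later neighbours overlapped. In *aramis* RNAi replicate 1 *NHP2* had 70.7 TPM, above the 66.5 of both *Nop60B* and *Nopp140*. By TPM the 6 genes lay between percentiles 95.3 and 98.3 of all genes with a length in *bam* RNAi and between 87.1 and 94.9 in *aramis* RNAi. TPM carries the total of its own library, so differences between the groups are taken from the normalised counts only. The TPM of *Nop60B* is the least certain, because its 5 annotated transcripts run from 971 to 3412 nt.

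**Figure D4:**
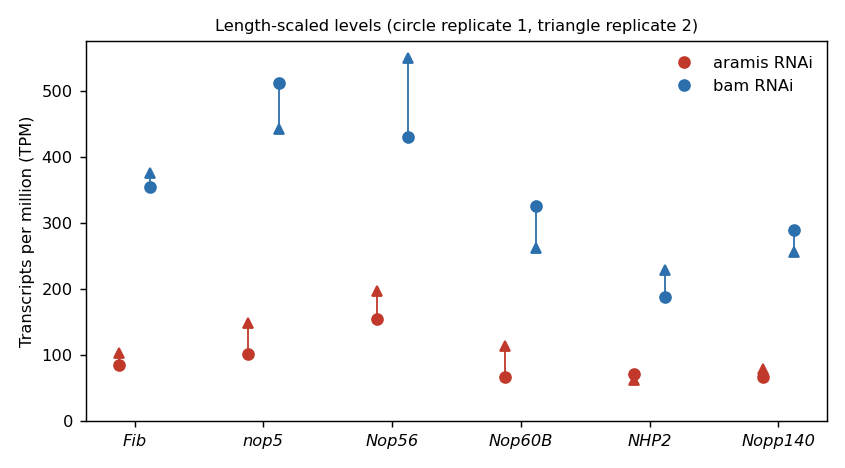
Level per length in TPM (vertical axis, from 0) of the 6 genes, with circles for replicate 1 and triangles for replicate 2 of *aramis* RNAi and *bam* RNAi. By group mean *Nop56* and *nop5* are the highest in both groups and *NHP2* is the lowest, but in *aramis* RNAi replicate 1 *NHP2* (70.7) lies above *Nop60B* and *Nopp140* (66.5 each).

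Replicates differed with transcript length across the tables, and the 6 genes are of unequal length. Genes were divided by transcript length into 5 classes of equal size. In the class of the shortest transcripts (879 nt at the median) the median log2 ratio of replicate 1 to replicate 2 was 0.33 for *aramis* RNAi and -0.31 for *bam* RNAi, and in the longest class (5586 nt) it was -0.40 and 0.47. *NHP2*, the shortest of the 6 at 781 nt, had 0.47 and -0.36. *Nop60B*, the longest at 3412 nt and in the second-longest class, whose medians were -0.17 and 0.08, had -0.51 and 0.24. *Fib* (1318 nt) had -0.01 and -0.16 and *Nopp140* (3232 nt) had 0.03 and 0.10. The 2 genes at the ends of the length range therefore differed between replicates in opposite directions, as did the classes they belong to. With the length correction, under which lower calls over all genes went from 783 to 1018, all 6 genes were called lower, at DESeq2 adjusted p of 0.000794 (*Fib*) to 0.0301 (*Nop56*) and log2 fold changes of -1.52 to -1.04.

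Many snoRNAs are processed from introns of genes for ribosomal and nucleolar proteins, and the annotation places snoRNA genes inside 3 of the 7 genes, where 0.601% of all protein-coding genes hold a snoRNA gene on their own strand. *Fib* holds *snoRNA:229*, *nop5* holds *snoRNA:nop5-x16-a* and *Nop60B* holds 7 snoRNA genes. Poly(A) selection removes most snoRNA, and the rows of these 9 snoRNA genes held few reads. *snoRNA:229* had raw counts of 8 and 26 with *aramis* RNAi against 45 and 51 with *bam* RNAi. *snoRNA:Psi18S-1820*, in an intron of *Nop60B*, had 5 and 12 against 14 and 16. *snoRNA:nop5-x16-a* had 1 and 7 against 0 and 9, with the groups overlapping. All were low throughout, and reads of an unspliced host transcript were not told apart from those of the snoRNA. The other 6 snoRNA genes of *Nop60B* overlap its annotated exons along their whole length and had 0 counts in every library, where 3 counts correspond to between 0.179 and 0.231 CPM (counts scaled to the total of the library). How reads over both genes were assigned was not stated, so the count of *Nop60B* is uncertain over those exons.

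The core of the H/ACA particle is completed by *Gar1* and *Nop10*, which are named here after their values were seen. *Gar1* had normalised counts of 827 and 492 with *aramis* RNAi against 1174 and 1820 with *bam* RNAi, or -1.18 on the log2 scale (SE 0.47, DESeq2 adjusted p = 0.0596). *Nop10* had 80.1 and 37.4 against 137 and 121, with -1.13 (SE 0.65, DESeq2 adjusted p = 0.224). In both genes the *aramis* RNAi values lay below the *bam* RNAi values without overlap, as in 30.3% of all genes tested. The difference was near that of *NHP2*, but neither gene passed the threshold.

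Assembly of snoRNPs needs further proteins that are not in the finished particle, as known from yeast and human cells. *Gar1* and *Nop10* were listed with 8 further genes of snoRNPs or of their assembly. Of the 10, 3 were called lower and 0 higher, where 7.79% of all genes were called lower and 9.85% higher. Their median log2 fold change was -1.14. *rept* (Reptin, an AAA+ ATPase) had normalised counts of 438 and 606 with *aramis* RNAi against 2225 and 1287 with *bam* RNAi, or -1.75 on the log2 scale (DESeq2 adjusted p = 0.00251). *pont* (Pontin, its partner) had 490 and 350 against 1309 and 1150, with -1.55 (DESeq2 adjusted p = 0.00519). *spag*, which encodes a co-chaperone that works with them, had 146 and 213 against 1347 and 288, with -2.19 (DESeq2 adjusted p = 0.00664). *spag* was much higher in *bam* RNAi replicate 1 than in replicate 2, while for *pont* both *bam* RNAi libraries were high. *Pih1D1*, named after its values were seen, encodes a further partner of this machinery and had 978 and 983 against 1371 and 1358, with -0.48 (DESeq2 adjusted p = 0.459).

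The other lists hold genes of ribosome assembly, and their medians were closer to 0. For each list below, the share of all genes called was 7.79% lower and 9.85% higher. Of 15 genes of the small-subunit processome, which holds the U3 box C/D particle, 5 were called lower and 0 higher, with a median log2 fold change of -1.07. Those with the smallest DESeq2 adjusted p were *CG12301* (-1.85, adjusted p = 0.00986), *dbe* (-2.16, adjusted p = 0.0176), a gene for a nucleolar protein of ribosomal RNA processing, and *CG12325* (-1.10, adjusted p = 0.0448). *dbe* was called although its groups overlapped, with normalised counts of 75.0 and 171 with *aramis* RNAi against 933 and 166 with *bam* RNAi, of which only *bam* RNAi replicate 1 stood apart. *CG12301* was also uneven, with 255 and 295 against 1506 and 472. Of 25 genes for large-subunit assembly and other nucleolar proteins, 5 were called lower and 0 higher, with a median of -0.97. *CG8545* (-1.50, DESeq2 adjusted p = 0.00975), *Surf6* (-1.27, adjusted p = 0.0226), which encodes a nucleolar protein, and *CG8939* (-1.51, adjusted p = 0.0235) had the smallest adjusted p. *CG8939* had 932 and 1119 against 4248 and 1580, so that its *bam* RNAi replicates were far apart as well. Of 7 noncoding host transcripts of snoRNAs, 1 was called lower, where 7.79% of all genes were. This was *Uhg5*, with counts of 429 and 323 against 830 and 1066 (log2 fold change -1.33, DESeq2 adjusted p = 0.0211). The median of the 7 was -0.69.

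Over the 3 protein lists, 13 of 50 genes (26%) were called lower and 0 higher, against 7.79% lower and 9.85% higher over all genes. All 50 log2 fold changes were below 0 with the scaling reported, as were those of 5876 of all 11128 genes tested. With germline marker scaling 0 of the 50 were called lower, and 1, 1 and 4 genes of the 3 lists were called higher, in a fit that called 5534 of all genes higher. The edgeR test called 3, 1 and 1 genes of the 3 lists lower, where it called 4.74% of all genes lower, and total-count scaling called 6, 12 and 15, where lower calls over all genes went from 783 to 1619. Both *aramis* RNAi values were below both *bam* RNAi values in 30.3% of all genes tested and in 44 of the 50 (88%). The *bam* RNAi replicates were less even for these genes than for the 6 snoRNP genes. In 16 of the 50 they were more than 2-fold apart and in 37 replicate 1 was the higher. The 6 genes were at most 1.35-fold apart, and replicate 1 was the higher in 3. The same was not counted over all genes, so how usual such numbers are is not known.

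**Figure D5:**
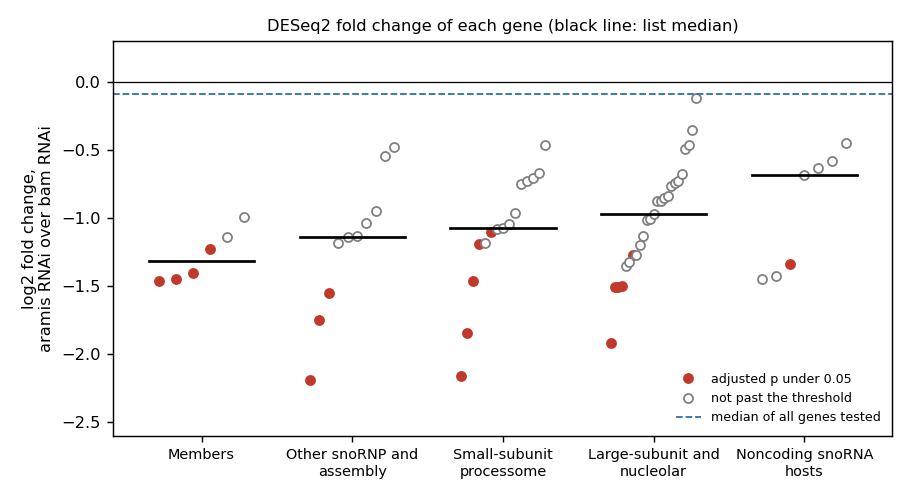
Log2 fold change (vertical axis, *aramis* RNAi over *bam* RNAi, DESeq2) of each gene in the groups named on the horizontal axis, with filled points for an adjusted p under 0.05, black lines for the group median and a dashed line for the median of all genes tested (-0.09). All points lie below 0, and the group medians run from -1.32 for the 6 genes to -0.69 for the noncoding snoRNA hosts.

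The genes with the most similar pattern over the 4 libraries were sought among 7246 genes whose normalised counts averaged 100 or more, by the distance between log2 profiles centred on their own means. The 6 genes had a mean centred profile of -0.67 and -0.61 with *aramis* RNAi against 0.60 and 0.68 with *bam* RNAi. The 10 nearest were, in order, *fu*, *CG5921*, *aurA*, *CG14965*, *CG4849*, *ImpL2*, *CG8173*, *Orc2*, *BoYb* and *CycA*, at distances of 0.07 to 0.15. None of them is on a list above. *fu*, the nearest, had normalised counts of 214 and 221 with *aramis* RNAi against 518 and 514 with *bam* RNAi. The functions of the 10 are not described here, and whether they share a function was not tested. *CycA* had normalised counts of 969 and 1122 with *aramis* RNAi against 2674 and 2767 with *bam* RNAi, and *Orc2* had 231 and 256 against 610 and 568. The log2 fold changes of the 10 ran from -1.38 to -1.25, within the range of the 6 genes, as the choice by profile brings about.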

How the data were processed

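Poly(A) RNA of ovaries was measured in 4 libraries, 2 per genotype, grouped and numbered by their labels. The authors deposited 1 table per library, holding unscaled read counts for each gene. The submitters' processing notes name the dm6 build, HISAT2 (version 2.1.0), featureCounts (version 1.4.6) and DESeq2 (version 1.24.0). The annotation used for counting and its strand setting were not stated. Positions, symbols and transcript lengths came from Ensembl release 115 (dm6 coordinates), which held 16647 of the 17023 identifiers. No genome or protein sequence was used here, so the planned sequence features were not computed.

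A gene was tested if its counts over all libraries summed to 10 or more. The test was the Wald test of DESeq2 (version 1.42.0) on genotype alone, with the default size factors and independent filtering, and the Benjamini-Hochberg adjustment ran over the 10049 genes that passed this filtering. Normalised counts are counts divided by size factors, and 95% intervals are Wald intervals. Intervals and the floor of 3 counts cover counting error and the fitted spread only, since PCR copies are not independent molecules. Alternatives were quasi-likelihood testing in edgeR (version 4.0.16), scaling by TMM, by total counts or by germline markers, removing the count filter or asking for 10 counts in each library, no independent filtering, a smooth correction for transcript length, the replicate number as a block, and leaving out each library. Scripts were tested on simulated data. Named genes are the members, the targeted genes, up to 3 called genes of each list with the smallest adjusted p, and the 10 nearest profiles. Lists were written from general knowledge. The members and lists were chosen with earlier results of these data known. Of the genes listed, *Mpp10* and *Utp15* were not matched to an identifier, and *hoip*, *vas*, *wupA* and *PPO1* were matched to one with no row.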

Additional observations from a re-analysis of the deposited data

How the results depend on the processing

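All 6 log2 fold changes stayed below 0, between -1.83 and -0.77, in the 15 alternatives other than germline marker scaling, which reversed them to 0.11 (*Fib*), 0.10 (*nop5*), 0.60 (*Nop56*), 0.30 (*Nop60B*), 0.46 (*NHP2*) and 0.15 (*Nopp140*), with a median of 0.23 and 0 genes called. With total counts the median moved from -1.32 to -1.67. Leaving out 1 library gave medians of -1.41 to -1.33 and 0 to 6 genes called, and each such fit left a lone library in its group, which was assumed to vary like the others. With the replicate number as a block, 0 of the 6 were called by DESeq2 (median -1.32) or by edgeR (median -1.34), and lower calls over all genes went from 783 to 277 in DESeq2 and from 528 to 191 in edgeR. With the block and the length correction together 3 were called, and 385 over all genes. The DESeq2 block left 1 assembly gene and 0 genes of the processome and large-subunit lists called lower. Deviations of same-numbered libraries had a correlation of -0.16 over 11128 genes and -0.54 over 7698 genes with at least 50 counts, so same-numbered libraries deviated in opposite directions and were not taken as pairs. With the pairing crossed, an alternative chosen after the data were seen, 6 were called, while lower calls over all genes went to 1372. Over the gene lists, settings and both directions of change, 36 counts of called genes stayed within 1.5-fold, 10 were higher and 18 were lower. Most of the 36 were counts of genes called higher that were 0 in both fits. They do not show that the lower calls held. All 18 counts that fell were of genes called lower. With edgeR, 1 of the 15 processome genes and 1 of the 25 large-subunit genes were called lower. The cause of these shifts was not tested. Reads for *Nop10* and the snoRNA rows were few, which limits what they can show.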
